A study of Mus musculus with 24 samples.

Results

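Genes that mark hepatic stellate cells and myofibroblasts were followed through the livers of mice with partial lipodystrophy. The 10 genes, of 23972 in the count table, were taken by name (Acta2, Tagln, Des, Vim, Pdgfra, Pdgfrb, Lrat, Reln, Cygb and Ecm1). Livers came from 24 female mice in 4 groups, crossing genotype with treatment. Controls (labelled Lmna.WT) were Lmna fl/fl without Adipoq-Cre, and Lmna ADKO mice (labelled Lmna.KO) were Lmna fl/fl with Adipoq-Cre, whose Cre is driven by the promoter of an adipocyte gene, so that both genotypes carry the floxed allele and the liver itself is not the targeted tissue. The groups were vehicle-treated controls (n = 7), controls labelled as rescue (n = 3), vehicle-treated Lmna ADKO mice (n = 6) and Lmna ADKO mice labelled as rescue (n = 8). The label rescue was read from the study's methods as an adeno-associated virus expressing FGF21, and these groups are called FGF21-treated here, with vehicle as saline with a surfactant. By the methods, all mice were 12 to 14 weeks old when the experiment began, were housed at 22°C, ate a diet with 60% of its energy as fat for 4 weeks before treatment, and were euthanized 8 weeks after it.

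Stellate cells lie between the hepatocytes and the sinusoidal endothelium. When quiescent they store vitamin A as retinyl esters, and when activated they turn into myofibroblasts that contract and lay down collagen. Platelet-derived growth factor, made by neighbouring cells, is a classic signal for their growth, and serum response factor (SRF) is a classic driver of smooth muscle contractile genes. In whole liver, fewer cells of a type and less RNA per cell cannot be told apart, and several of these genes are also used by vascular smooth muscle cells, portal fibroblasts or hepatocytes.

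The libraries held from 19863304 to 21510054 counted reads each. All 10 genes were detected in all 24 libraries, with 63 as the lowest count of any of them in any library. Counts were highest for Ecm1 (2529 to 5226) and lowest for Acta2, Des and Pdgfra (63 to 244), whose values carry the most counting error. Libraries are numbered within each group. Counts on Lmna were higher in vehicle-treated Lmna ADKO livers (23.6 to 31.0 CPM, counts scaled to a common library size) than in vehicle-treated controls (15.7 to 22.1 CPM), and whole-liver counts do not test a deletion in adipocytes. Counts on Fgf21 did not separate the treated from the untreated groups, with 2.19 to 9.99 CPM in Lmna ADKO livers labelled as rescue against 4.63 to 10.6 CPM with vehicle, and with 3.14 to 7.40 CPM in such controls against 1.90 to 10.8 CPM. The treatment named here therefore rests on the labels and the methods alone. In 3 libraries, levels rose with shorter gene length more steeply than in the others. The slope of the level (log2) on gene length (log2) was -0.331 in library 7 of the FGF21-treated Lmna ADKO mice, -0.289 in library 3 of the FGF21-treated controls and -0.154 in library 3 of the vehicle-treated controls, against -0.109 to 0.128 in the other 21. Control vehicle library 2 and control FGF21 library 1 held reads on the adipocyte gene Adipoq (0.609 and 0.428 CPM, against at most 0.135 CPM elsewhere), and Lmna ADKO FGF21 libraries 2 and 5 held reads on the skeletal muscle gene Ckm (5.18 and 2.29 CPM, against at most 0.0855 CPM elsewhere).

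To place the 10 genes beside each other, levels were divided by the length of each gene's exons (GENCODE M21 on GRCm38). In vehicle-treated controls, Ecm1, a secreted matrix glycoprotein, was the highest, at 74.9 ± 9.67 CPM per kb (SD, n = 7). Vim, an intermediate filament of mesenchymal cells, followed at 6.52 ± 1.48 CPM per kb, and Cygb, a globin that stellate cells are known for, at 5.05 ± 1.09 CPM per kb. Ecm1 did not overlap with Vim in any group, whereas the ranges of Vim and Cygb overlapped. Below them came Tagln at 3.44 ± 0.73, Acta2 at 2.39 ± 0.84, Lrat at 2.29 ± 0.46, Reln at 1.88 ± 0.21, Des at 1.86 ± 0.25 and Pdgfrb at 1.65 ± 0.33 CPM per kb, each overlapping with its neighbour. Pdgfra was the lowest, at 0.515 ± 0.050 CPM per kb, below every value of Pdgfrb in all 4 groups. In vehicle-treated Lmna ADKO livers, Tagln moved up in this order to a place beside Vim, at 8.84 ± 1.35 CPM per kb (n = 6), where Vim stood at 8.79 ± 1.34 CPM per kb. The order in the middle depends on the length used: with the longest transcript in place of all exons, Reln in vehicle-treated controls stood at 3.82 CPM per kb, Vim at 10.6 CPM per kb and Tagln at 4.29 CPM per kb.

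**Figure D1:**
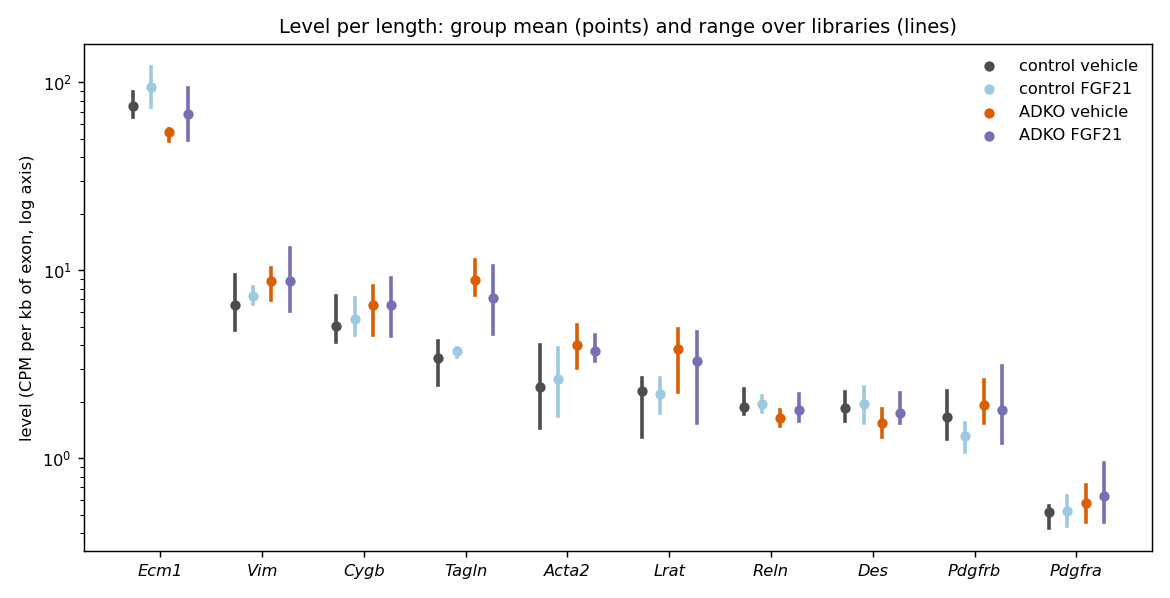
Level of each gene per kb of exon (CPM per kb, log axis) in the 4 groups, ordered by the vehicle-treated controls. Points are group means and lines run from the lowest to the highest library. Ecm1 stands alone at the top (74.9 CPM per kb in vehicle-treated controls), Pdgfra at the bottom (0.515 CPM per kb), and Tagln rises from 3.44 to 8.84 CPM per kb between vehicle-treated controls and vehicle-treated Lmna ADKO livers.

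Of the 10 genes, the contractile gene Tagln differed most between genotypes. It encodes transgelin, a calponin-related protein that binds actin filaments, and lies on chromosome 9 (GRCm38, 45929619 to 45936058, minus strand). In vehicle-treated controls it ran from 4.87 CPM over a median of 7.55 CPM to 8.36 CPM (n = 7), and in vehicle-treated Lmna ADKO livers from 14.7 over 17.0 to 22.6 CPM (n = 6). All 6 Lmna ADKO libraries lay above all 7 controls. The change was 2.57-fold (log2 fold change 1.36 ± 0.15, SE), with an adjusted p of 2.6e-07 by edgeR's quasi-likelihood test, whose p-values are Benjamini-Hochberg adjusted over all genes here and below. Of all genes tested, 4.22% had every vehicle-treated Lmna ADKO library above every vehicle-treated control. Tagln overlaps Pcsk7, a proprotein convertase gene, and Gm48529 on the opposite strand, and Pcsk7 did not pass the test (log2 fold change -0.02 ± 0.10, adjusted p = 0.94). The libraries keep the strand, but whether the counting used it is not given in the sources used here.

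Acta2 encodes smooth muscle alpha-actin, the usual marker of a myofibroblast, and lies on chromosome 19 (GRCm38, 34241090 to 34255590, minus strand). It ran from 3.17 over 4.70 to 8.76 CPM in vehicle-treated controls and from 6.67 over 8.82 to 11.3 CPM in vehicle-treated Lmna ADKO livers. The groups overlapped, since control vehicle library 2 held 8.76 CPM and the other 6 controls no more than 5.89 CPM. That highest control is one of the libraries with reads on Adipoq, whose part in its Acta2 level was not tested. Acta2 rose 1.66-fold (log2 fold change 0.73 ± 0.18, adjusted p = 0.0058). Without both libraries that held reads on Adipoq, a setting added after the data were seen, the log2 fold change was 0.90. Reads on the protein-coding part of one actin can match another, and of these relatives the smooth muscle actin Actg2 held 0.243 to 1.296 CPM and the skeletal muscle actin Acta1 0 to 0.180 CPM in vehicle-treated Lmna ADKO livers, below Acta2 in each of these libraries. The cytoplasmic actins were far above it. Actb ran from 390.6 to 548.7 CPM in these livers and from 318.8 to 494.4 CPM in vehicle-treated controls (log2 fold change 0.41 ± 0.11, adjusted p = 0.012), and Actg1 ran from 253.7 to 293.0 CPM and from 255.3 to 339.7 CPM (-0.13 ± 0.10, adjusted p = 0.43). The part of reads shared with these actins in the level of Acta2 was not tested.

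Smooth muscle contractile genes are classic targets of SRF, which binds the CArG box (CC, a run of A or T, then GG). RefSeq promoter windows (GRCm38.p6, from 250 bases before to 50 bases after the start) were at hand for 7 of the 10 genes, namely Acta2, Des, Ecm1, Lrat, Pdgfra, Reln and Vim. The start is that of the window and can differ from the gene bounds given here. For Acta2 it lies downstream of the gene's 5′ end (34255590), so that the Acta2 stretches below lie within those bounds. A perfect CArG box was in none of these 7 windows and in 1.63% of all 32817 windows. The Acta2 window held a pair of elements with 1 C or G among the middle bases. Elements with at most 1 C or G there, perfect boxes included, were in 9.99% of all windows at least once and in 0.823% at least 2 times. The pair in Acta2 is shown because Acta2 is one of the members that rose, with the element in capitals, 5′ to 3′ on the gene's strand.
Acta2, element at -84 to -75 from the start, chr19:34255438-34255467, minus strand: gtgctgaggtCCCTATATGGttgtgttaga
Acta2, element at -34 to -25 from the start, chr19:34255388-34255417, minus strand: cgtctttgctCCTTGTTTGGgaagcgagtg
The window of Lrat, another member that rose, held 1 such element.
Lrat, element at -223 to -214 from the start, chr3:82904178-82904207, minus strand: cttctcaccgCCAAGAAAGGtgctccattc
The letters CATTCC, the core motif of the TEAD factors, were searched on both strands and were in 14.7% of all windows. Among the 7 windows they were found only in Acta2 and Lrat, 1 time each. The stretch of Lrat overlaps the one above.
Acta2, reverse complement of CATTCC, chr19:34255502-34255531, minus strand: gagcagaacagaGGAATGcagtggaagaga
Lrat, CATTCC, chr3:82904165-82904194, minus strand: agaaaggtgctcCATTCCtggcaggtgcag
These matches describe letters, and binding of a factor was not measured. The letters AGGTCA, also searched on both strands, were in none of the 7 windows and in 16.3% of all windows. Tagln, the member that differed most, had no window to search.

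The genes known for quiescent stellate cells did not move as a block. Lrat encodes lecithin retinol acyltransferase, the enzyme that turns retinol into the retinyl esters that stellate cells store, and lies on chromosome 3 (GRCm38, 82892579 to 82903973, minus strand). It ran from 6.91 over 13.1 to 14.4 CPM in vehicle-treated controls and from 12.03 over 21.02 to 26.13 CPM in vehicle-treated Lmna ADKO livers. In 5 of 6 Lmna ADKO libraries it lay above all controls, and library 5 (12.03 CPM) fell among them. Lrat rose 1.67-fold (log2 fold change 0.74 ± 0.20, adjusted p = 0.013).

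Ecm1 ran the other way. It ran from 165.3 over 178.2 to 225.4 CPM in vehicle-treated controls and from 123.1 over 140.1 to 143.0 CPM in vehicle-treated Lmna ADKO livers, so that all 6 Lmna ADKO libraries lay below all controls, as 3.73% of all genes did. The difference passed the adjusted p but not the 1.5-fold that a call also asked for (log2 fold change -0.47 ± 0.13, adjusted p = 0.015). Reln encodes the secreted glycoprotein reelin, and ran from 40.8 over 42.5 to 55.4 CPM in controls and from 35.1 over 38.7 to 42.9 CPM in Lmna ADKO livers with vehicle, where 4 of 6 Lmna ADKO libraries lay below all controls (log2 fold change -0.20 ± 0.09, adjusted p = 0.16). Cygb ran from 9.70 over 11.01 to 17.13 CPM and from 10.6 over 14.7 to 19.1 CPM, and did not pass the test (log2 fold change 0.37 ± 0.16, adjusted p = 0.15). Lrat and Ecm1 thus differed between genotypes in opposite directions, while Reln and Cygb did not pass. Which liver cells the reads on Ecm1 came from was not tested.

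Both intermediate filaments also parted in sign. Vim ran from 23.0 over 30.8 to 45.1 CPM in vehicle-treated controls and from 33.2 over 41.0 to 49.0 CPM in vehicle-treated Lmna ADKO livers, with overlap, and passed the adjusted p narrowly, below the 1.5-fold (log2 fold change 0.43 ± 0.15, adjusted p = 0.049). This adjusted p was 0.037 with DESeq2, 0.053 without the 3 libraries of steeper length slope and 0.12 with the digits of the animal number as a covariate. Des, the muscle-type filament desmin, ran from 5.94 over 6.48 to 8.51 CPM and from 4.86 over 5.76 to 6.89 CPM (log2 fold change -0.27 ± 0.12, adjusted p = 0.14).

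The receptors of platelet-derived growth factor did not pass the test with vehicle. Pdgfrb, whose product is the main receptor of the B chain on stellate cells, ran from 6.97 over 8.75 to 12.5 CPM in controls and from 8.42 over 9.83 to 14.2 CPM in Lmna ADKO livers (log2 fold change 0.21 ± 0.17, adjusted p = 0.47). Pdgfra ran from 4.28 over 5.30 to 5.62 CPM and from 4.58 over 5.57 to 7.26 CPM (log2 fold change 0.16 ± 0.15, adjusted p = 0.51). Of the 4 ligands, 2 were called higher in the same comparison, both chains that bind the alpha receptor, the product of Pdgfra. Pdgfc rose by a log2 fold change of 0.78 ± 0.18 (adjusted p = 0.0023) and Pdgfa by 0.84 ± 0.19 (adjusted p = 0.0026), each with all 6 Lmna ADKO libraries above all 7 controls. Pdgfd (0.48 ± 0.22, adjusted p = 0.14) and Pdgfb (0.16 ± 0.19, adjusted p = 0.62) did not pass. With vehicle, 2 ligands were thus called higher in Lmna ADKO livers, while neither receptor passed. Across all genes, 5.12% were called higher in this comparison, and 4.22% had every Lmna ADKO library above every control.

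**Figure D2:**
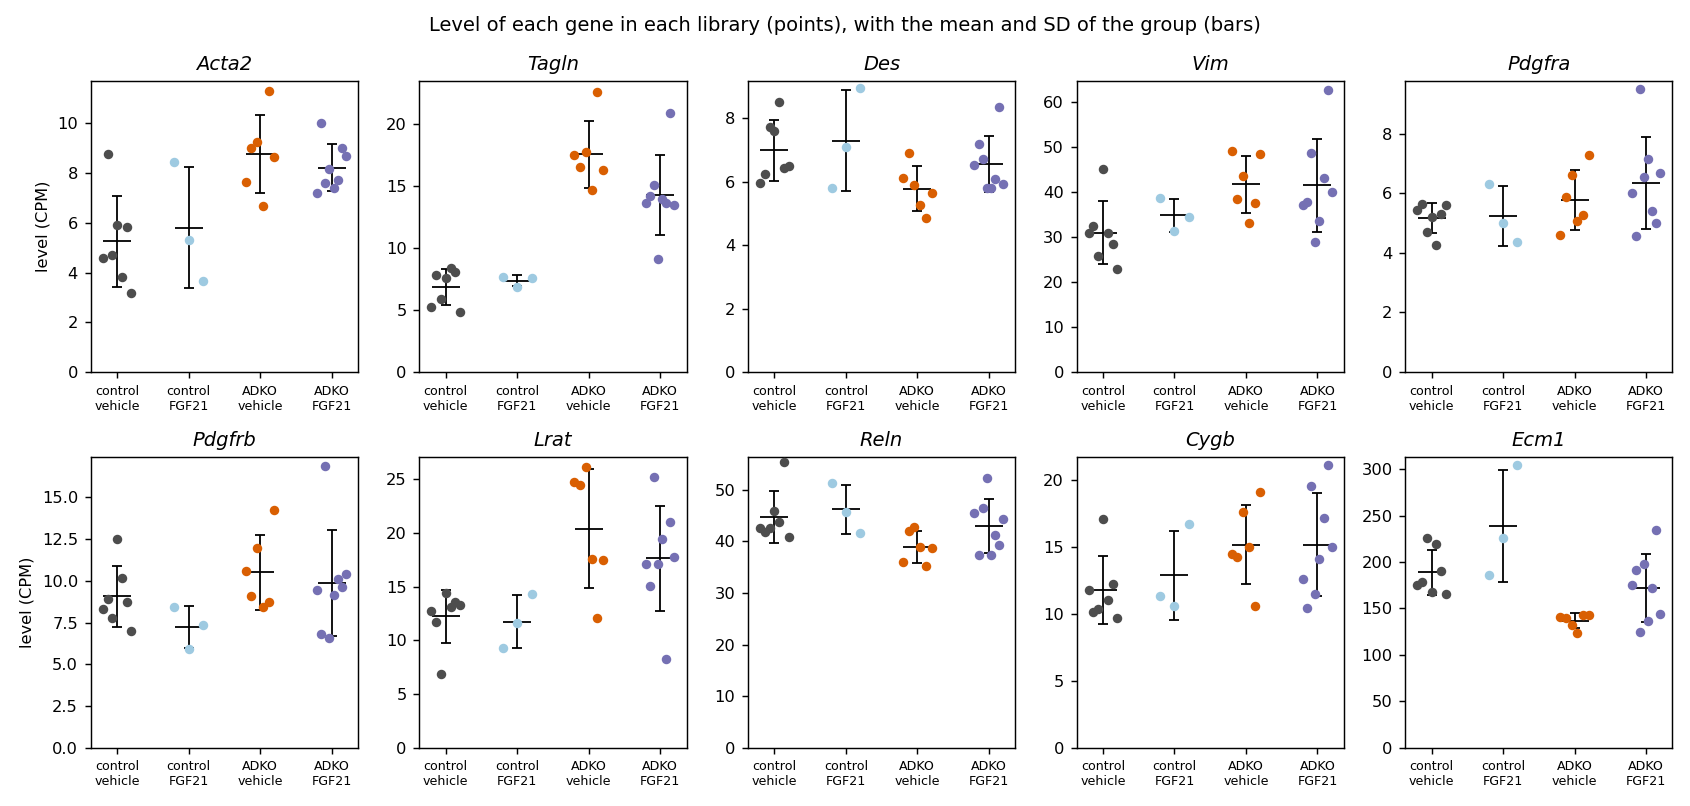
Level of each of the 10 genes (CPM, axes from 0) in every library of the 4 groups. Points are libraries, and the bars are the mean and SD of the group (n = 7, 3, 6 and 8). For Tagln every Lmna ADKO library lies above every control of the same treatment (14.7 to 22.6 against 4.87 to 8.36 CPM with vehicle), while Ecm1 lies lower in Lmna ADKO livers with vehicle (123.1 to 143.0 against 165.3 to 225.4 CPM).

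In all, 3 of the 10 genes (Tagln, Acta2 and Lrat) were called higher in vehicle-treated Lmna ADKO livers, and 0 were called lower. A call was an adjusted p under 0.05 with a change over 1.5-fold. Across all genes, 5.12% were called higher and 3.36% lower, and among the 12492 genes whose log2 CPM averaged 0 or more, as it did for all members, 6.68% were called higher. By adjusted p alone 5 of the 10 passed, 4 higher and 1 lower, beside 15.1% of all genes. The members were chosen with earlier results of these data known, so these shares are no test of the set. The median log2 fold change of the 10 was 0.29, and that of all genes 0.00265. The animal numbers in the labels have 3 digits in 6 of 7 vehicle-treated controls and 4 digits in 5 of 6 vehicle-treated Lmna ADKO mice. The single Lmna ADKO library with 3 digits held 17.5 CPM of Tagln, 7.64 CPM of Acta2 and 24.8 CPM of Lrat. The 6 controls with 3 digits ran from 5.26 to 8.36 CPM for Tagln, from 3.83 to 8.76 CPM for Acta2 and from 6.91 to 14.4 CPM for Lrat. The single control with 4 digits held 4.87, 3.17 and 13.3 CPM, where the 5 Lmna ADKO libraries with 4 digits ran from 14.7 to 22.6 CPM for Tagln, from 6.67 to 11.3 CPM for Acta2 and from 12.03 to 26.13 CPM for Lrat. With the number of digits as a covariate, the same 3 genes were called, and Ecm1 no longer passed (log2 fold change -0.42, adjusted p = 0.10).

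With FGF21 in both genotypes, 1 of the 10 genes was called. Tagln held 7.70, 6.84 and 7.57 CPM in the 3 controls and ran from 9.14 over 13.8 to 20.9 CPM in the 8 Lmna ADKO livers, so that all 8 lay above all 3 controls, as 2.98% of all genes did. The change was 1.93-fold (log2 fold change 0.95 ± 0.19, adjusted p = 0.0035). The highest of them, library 7, is the one with the steepest length slope, and without the 3 libraries of steeper slope Tagln was still called. Across all genes, 1.61% were called higher and 1.26% lower in this comparison (387 and 303 genes). These totals rest on single libraries: they were 501 and 648 without Lmna ADKO FGF21 library 7, 200 and 216 without control FGF21 library 2, and 194 and 145 without control FGF21 library 3.

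The other members did not pass with FGF21. Acta2 held 8.46, 5.29 and 3.67 CPM in the controls and ran from 7.22 over 7.94 to 10.01 CPM in Lmna ADKO livers (log2 fold change 0.49 ± 0.23, adjusted p = 0.27). The control with 8.46 CPM is the FGF21-treated library with reads on Adipoq, and without it and control vehicle library 2 the log2 fold change was 0.86 (adjusted p = 0.026). This setting was added after the data were seen. It left out the control highest in Acta2 from each treatment, and so left fewer FGF21-treated controls. Ecm1 held 185.6, 225.7 and 304.3 CPM in the controls and ran from 124.4 over 173.5 to 234.8 CPM in Lmna ADKO livers, which was no call (log2 fold change -0.47 ± 0.16, adjusted p = 0.087). When those 2 libraries were left out, Ecm1 too was called (-0.64, adjusted p = 0.039). Lrat held 9.32, 11.6 and 14.3 CPM in the controls and ran from 8.26 over 17.4 to 25.2 CPM in Lmna ADKO livers, where 7 of 8 lay above all controls and library 6 (8.26 CPM) below them (log2 fold change 0.59 ± 0.26, adjusted p = 0.23). The remaining 6 genes had log2 fold changes between -0.15 for Des and 0.46 for Pdgfrb.

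**Figure D3:**
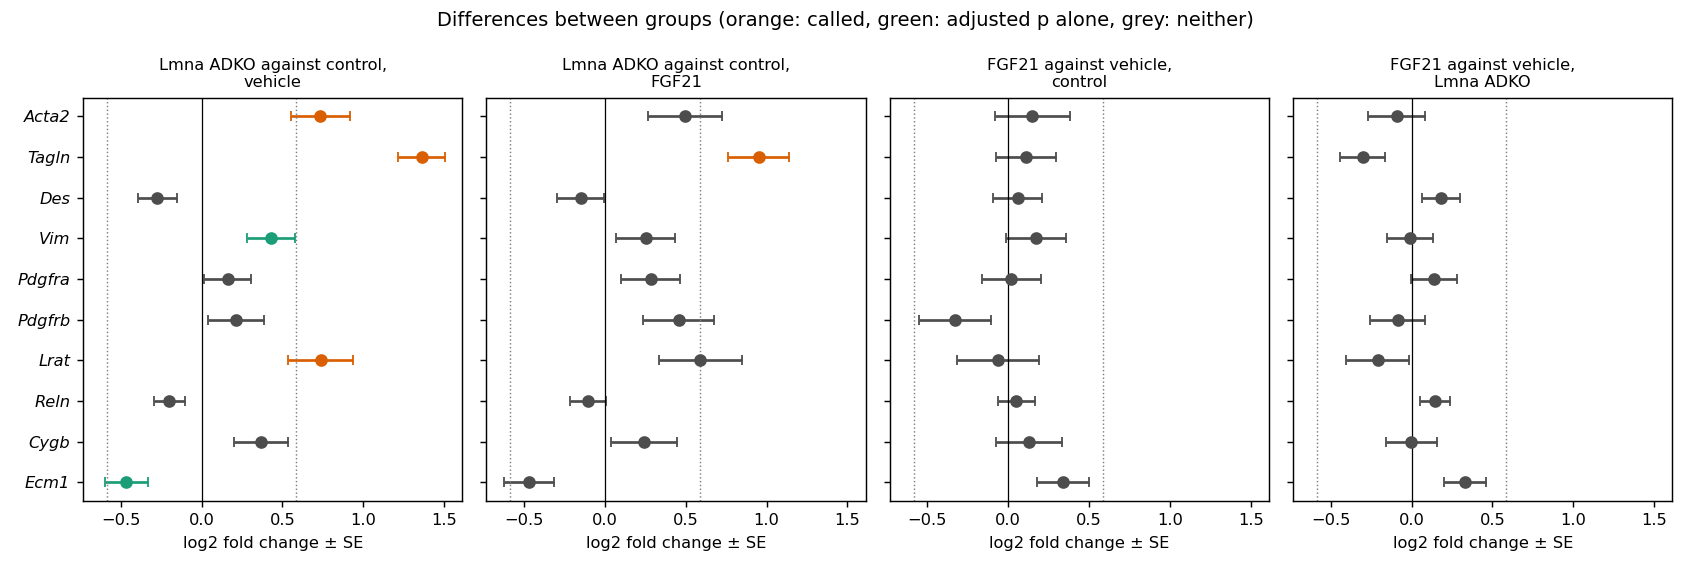
Log2 fold change of each gene with its SE in the 4 comparisons of 2 groups. Dotted lines mark a change of 1.5-fold in either direction, orange marks a call, green an adjusted p under 0.05 alone and grey neither. Tagln is called in both genotype comparisons (1.36 and 0.95), Acta2 and Lrat with vehicle only, and no gene in either treatment comparison.

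Treatment was compared within each genotype to ask whether FGF21 moved these genes. Of the 10 genes, 0 were called in controls, where 0.0542% of all genes were called in either direction, and 0 in Lmna ADKO livers, where 0.0% of all genes were by edgeR (1608 genes at an unadjusted p under 0.05, and 7 called higher and 8 lower by DESeq2). The count of 0 over all genes rests on Lmna ADKO FGF21 library 3, since without it edgeR called 21 genes higher and 40 lower, none of them a member. In controls, all 3 FGF21-treated mice have animal numbers of 4 digits and 6 of 7 vehicle-treated mice have 3, so treatment and number series can hardly be told apart there. The 13 genes called in controls became 0 with the number of digits as a covariate and 38 by DESeq2. They were 3 without control FGF21 library 2, 8 without control FGF21 library 1 or control vehicle library 2, 3 or 7, and 26 without control vehicle library 6. By edgeR, 1 of the 10 had an unadjusted p under 0.05 in controls and 2 in Lmna ADKO livers, and DESeq2 called 0 of the 10 in each. In controls, the log2 fold changes ran from -0.33 for Pdgfrb to 0.34 for Ecm1. In Lmna ADKO livers they ran from -0.30 for Tagln (adjusted p = 0.70) to 0.33 for Ecm1 (adjusted p = 0.70). For Tagln in Lmna ADKO livers the interval of 1.96 SE on either side ran from -0.57 to -0.03, and for Acta2 from -0.44 to 0.25, so that a fall of Tagln to about its level in controls lies outside it. In the test of the interaction of genotype and treatment, 0 of 10 were called, beside 0.00417% of all genes, and 0 of 10 had an unadjusted p under 0.05. With 3 FGF21-treated controls this does not show that the effect of genotype was alike under both treatments. The interaction of Tagln was -0.41 ± 0.23 (adjusted p = 0.98), with an interval of 1.96 SE from -0.86 to 0.04. The genotype comparisons with vehicle and with FGF21 share no library. Since no member was called in the interaction, the passing of Acta2 and Lrat in the first and not in the second is not shown to be a difference between them. In the lists of related genes below, fewer genes were called with FGF21 than with vehicle. With 0.00417% of all genes called in the interaction, this too is not shown to be a difference between the comparisons.

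Genes for the matrix that activated stellate cells lay down had larger differences between genotypes than most of the 10. Of 11 measured genes of this list, 9 were called higher in vehicle-treated Lmna ADKO livers and 0 lower, with a median log2 fold change of 1.12. Across all genes, 5.12% were called higher. This list and those below were chosen with earlier results of these data known, so their counts are descriptions and no test of a list. The number called was 6 without the 3 libraries of steeper length slope, 7 without both libraries that held reads on Adipoq, and 6 to 10 when single libraries were left out, the lowest without vehicle-treated Lmna ADKO library 3 or library 6. Their summed level ran from 209.6 to 416.7 CPM in Lmna ADKO livers and from 132.2 to 285.4 CPM in controls. The smallest adjusted p-values belonged to Ccn2 (connective tissue growth factor, log2 fold change 1.93 ± 0.27, adjusted p = 2.2e-05) and Postn (periostin, 0.995 ± 0.15, adjusted p = 3.3e-05). Loxl2, which crosslinks collagen (1.12 ± 0.20, adjusted p = 0.00025), and Lum, the proteoglycan lumican (1.04 ± 0.21, adjusted p = 0.0012), followed. The 2 not called, named here after their values were seen, were Sparc (0.44 ± 0.15, adjusted p = 0.047) and Col1a1 (1.46 ± 0.51, adjusted p = 0.058). With FGF21 in both genotypes 2 of the 11 were called, Postn (0.78 ± 0.19, adjusted p = 0.018) and Loxl2 (0.88 ± 0.26, adjusted p = 0.0497). The median log2 fold change of the list was 0.88 there. Within Lmna ADKO livers, FGF21 against vehicle called 0 of the 11. The sums ran from 189.3 to 500.7 CPM with FGF21 and from 209.6 to 416.7 CPM with vehicle. The fewer genotype calls with FGF21 are therefore not shown to be an effect of the treatment.

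Of 15 other genes of quiescent stellate cells, 0 were called higher and 2 lower with vehicle, and their median log2 fold change was -0.01. Across all genes, 5.12% were called higher and 3.36% lower. Both lower genes had all 6 Lmna ADKO libraries below all 7 controls, as 3.73% of all genes did. Gfap, an intermediate filament of quiescent stellate cells, ran from 0.590 over 0.778 to 1.18 CPM in controls and from 0.292 over 0.394 to 0.496 CPM in Lmna ADKO livers (log2 fold change -1.05 ± 0.24, adjusted p = 0.0033), on counts of 6 to 26. Pth1r, a parathyroid hormone receptor, ran from 14.6 over 17.1 to 20.2 CPM and from 8.33 over 11.6 to 13.3 CPM (log2 fold change -0.64 ± 0.12, adjusted p = 0.00040). Without vehicle-treated Lmna ADKO library 4 or library 5, Gfap alone of the 15 was called, and Pth1r stood at -0.58 in both cases, just within 1.5-fold. By adjusted p alone, 4 of the 15 passed lower and 1 higher. The higher one was Dcn, the proteoglycan decorin (0.46 ± 0.09, adjusted p = 0.00088), and Angptl6 was among the lower (-0.53 ± 0.17, adjusted p = 0.034). The summed level of the 15 ran from 395.4 to 540.3 CPM in Lmna ADKO livers and from 335.6 to 495.3 CPM in controls with vehicle. With FGF21, 0 of the 15 were called, and Hand2, a transcription factor of stellate cells, passed the adjusted p alone (-0.57 ± 0.16, adjusted p = 0.041).

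Of 12 other smooth muscle genes, 1 was called higher with vehicle and 0 lower, beside 5.12% and 3.36% of all genes. The median log2 fold change of the 12 was 0.27. Their summed level, in which each gene weighs by its abundance, ran from 341.7 to 411.0 CPM in Lmna ADKO livers and from 257.3 to 318.1 CPM in controls. All 6 Lmna ADKO libraries thus lay above all 7 controls in this sum, for which no share over other sums was computed. Tpm1, a tropomyosin (0.77 ± 0.16, adjusted p = 0.0012), was called, and Cald1, caldesmon (0.50 ± 0.12, adjusted p = 0.0048), passed the adjusted p alone. Both had all 6 Lmna ADKO libraries above all controls, as 4.22% of all genes did. Myh11, the smooth muscle myosin heavy chain and a defining marker of vascular smooth muscle, ran from 1.88 to 4.08 CPM in controls and from 1.75 to 4.15 CPM in Lmna ADKO livers (log2 fold change -0.11 ± 0.22, adjusted p = 0.80). It made up only a small part of the summed level. Srf itself did not pass (-0.09 ± 0.10, adjusted p = 0.59), while its cofactors Mrtfb (0.50 ± 0.13, adjusted p = 0.0069) and Mrtfa (0.32 ± 0.11, adjusted p = 0.042) passed the adjusted p below 1.5-fold. With FGF21, 0 of the 12 smooth muscle genes and 0 of the 4 genes of the SRF list were called, and the summed level of the 12 overlapped between genotypes (306.2 to 440.7 CPM in Lmna ADKO livers against 238.6 to 312.5 CPM).

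Around Lrat, 3 of 12 measured genes of retinoid handling were called higher with vehicle and 0 lower, beside 5.12% and 3.36% of all genes. Aldh1a1, which makes retinoic acid and is abundant in hepatocytes, rose by 1.31 ± 0.22 (log2 fold change, adjusted p = 0.00012). Rarb, a retinoic acid receptor whose gene retinoic acid induces (1.55 ± 0.26, adjusted p = 0.00013), and Cyp26a1, which breaks retinoic acid down (2.04 ± 0.42, adjusted p = 0.0020), rose too. Rxra, the partner of many nuclear receptors, passed the adjusted p downward (-0.36 ± 0.11, adjusted p = 0.027). With FGF21, Aldh1a1 alone was called (1.13 ± 0.28, adjusted p = 0.020). For Reln, 0 of 3 genes for its receptors and adaptor were called in either genotype comparison.

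**Figure D4:**
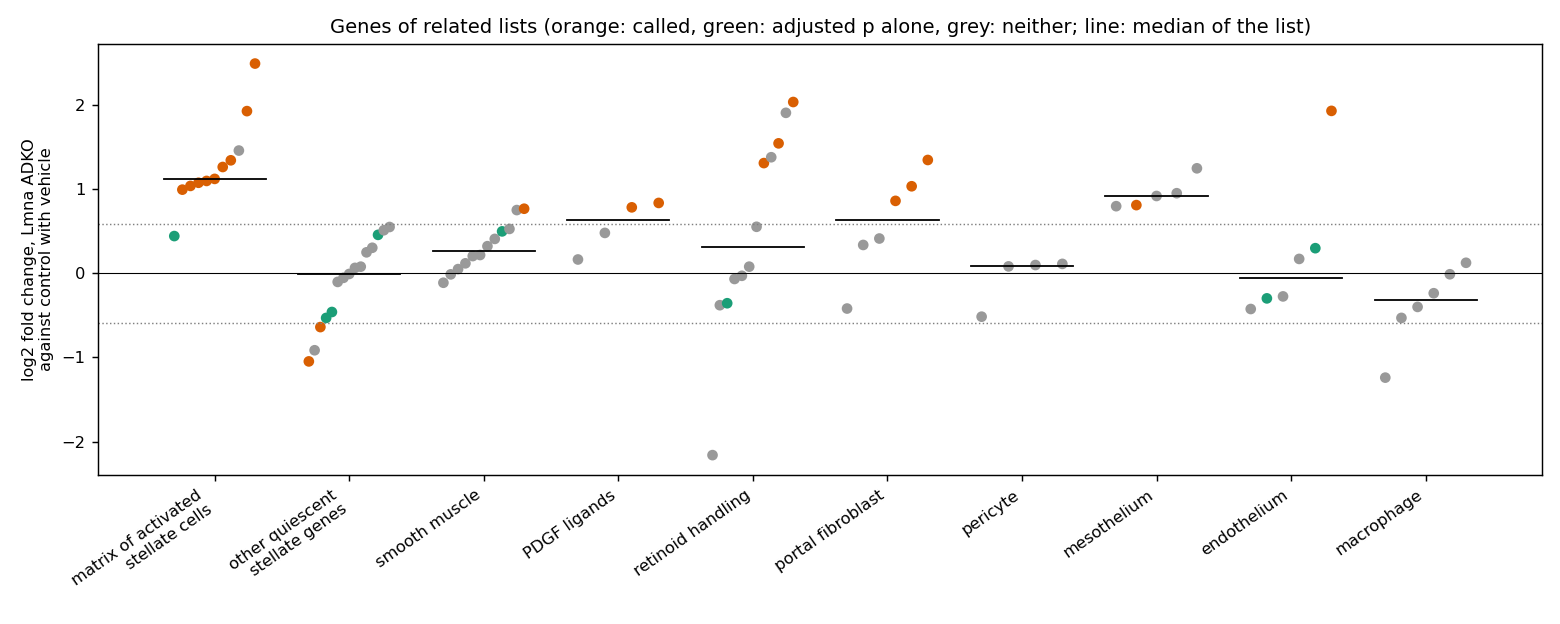
Log2 fold change of single genes of 10 related lists, vehicle-treated Lmna ADKO livers against vehicle-treated controls. Points are genes, the line is the median of the list, dotted lines mark 1.5-fold, orange marks a call, green an adjusted p under 0.05 alone and grey neither. In the matrix list 9 of 11 genes are called higher (median 1.12), while the pericyte list (0 of 4) and the macrophage list (0 of 6) hold no call.

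Markers of other cells that share these genes were measured beside them, and their part in the results was not tested. Across all genes, 5.12% were called higher and 3.36% lower with vehicle, and 1.61% and 1.26% with FGF21. Of 6 portal fibroblast genes, 3 were called higher with vehicle, Entpd2 (0.86 ± 0.15, adjusted p = 0.00023), Fbln2 (1.35 ± 0.26, adjusted p = 0.00080) and Cd34 (1.04 ± 0.32, adjusted p = 0.029), and their summed level ran from 17.5 to 32.9 CPM in Lmna ADKO livers and from 13.5 to 23.8 CPM in controls. With FGF21, Thy1 was called lower (-0.73 ± 0.21, adjusted p = 0.049). Pericyte genes (0 of 4 called in either genotype comparison) summed to 25.4 to 31.4 CPM in Lmna ADKO livers and to 23.9 to 32.5 CPM in controls with vehicle. Of 5 mesothelial genes, Gpm6a was called with vehicle (0.81 ± 0.27, adjusted p = 0.042), and the list summed to 2.18 to 5.73 CPM against 1.04 to 4.57 CPM. Of 6 endothelial genes, Lyve1 alone was called with vehicle (1.93 ± 0.21, adjusted p = 5.8e-07) and with FGF21 (1.49 ± 0.27, adjusted p = 0.0022). Macrophage genes (0 of 6) and lymphocyte genes (0 of 6) held no call in either genotype comparison. Of 5 cholangiocyte genes, Spp1, which other liver cells make too, was called with vehicle (1.83 ± 0.31, adjusted p = 0.00030), and the list summed to 85.8 to 195.6 CPM in Lmna ADKO livers and to 27.0 to 51.2 CPM in controls. Hepatocyte genes summed to between 65787 and 139560 CPM over all libraries, and with vehicle 2 of 6 were called lower, Serpina1c (-0.91 ± 0.18, adjusted p = 0.00072) and Cps1 (-0.93 ± 0.20, adjusted p = 0.0016). Of 4 pancreas genes, Cela1 was called lower with vehicle (-0.71 ± 0.21, adjusted p = 0.024). Adipocyte genes (0 of 5) and skeletal muscle genes (0 of 6) held no call in either genotype comparison, and the muscle genes Myh4 and Mb were at 0 in all libraries outside the Lmna ADKO FGF21 group.

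To see which of the 10 varied together from mouse to mouse, levels (log2 CPM) were compared over the 24 libraries after the mean of each group was subtracted. These correlations are descriptions over libraries that share their scaling. Of 45 pairs, 5 had a Pearson's r above 0.6, and the median was 0.19. Cygb and Pdgfrb (r = 0.73), Cygb and Vim (0.72) and Pdgfrb and Vim (0.71) formed a trio, which stood at 0.84, 0.71 and 0.83 without the 3 libraries of steeper length slope. Vim also varied with Tagln (0.65, and 0.51 without those libraries). Acta2 and Tagln had an r of 0.42 within groups and 0.78 before the group means were subtracted. Lrat had no r above 0.37 with another member. Ecm1 varied with Des (0.62) and against Pdgfra (-0.71), but both Ecm1 (-0.77) and Des (-0.71) also varied with the length slope of the library, as Pdgfra did the other way (0.65). Without the 3 libraries, Ecm1 and Des stood at 0.31, and Ecm1 and Pdgfra at -0.65.

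**Figure D5:**
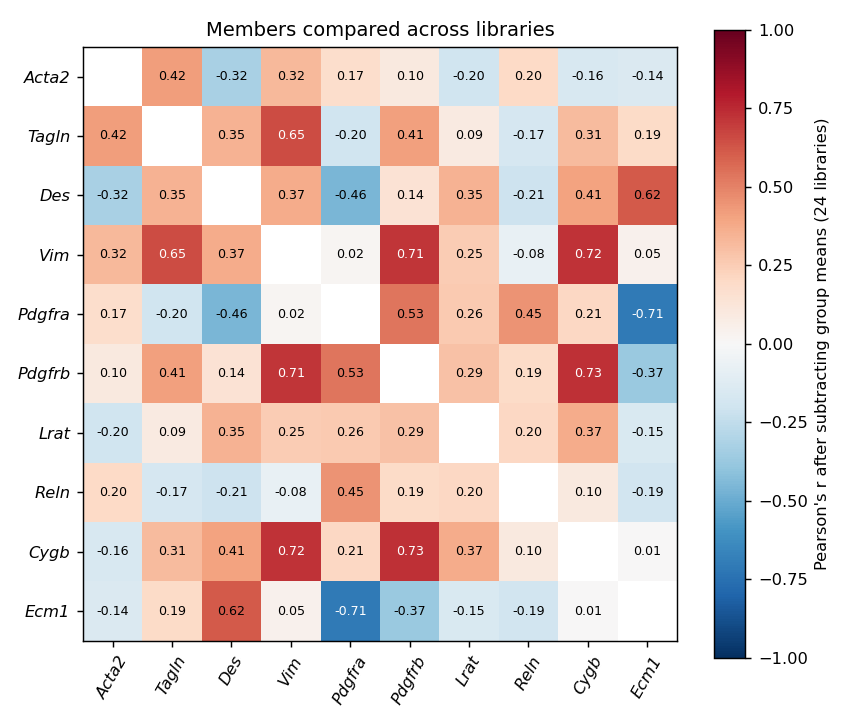
Pearson's r of each pair of the 10 genes over 24 libraries, after subtracting the mean of each group from levels in log2 CPM. Red marks positive and blue negative values. Cygb, Pdgfrb and Vim vary together (0.71 to 0.73), and Ecm1 varies against Pdgfra (-0.71).

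Among the 12492 genes whose log2 CPM averaged 0 or more, those most like each member in the same measure were then listed, members left out. For Pdgfrb they were Col1a2 (r = 0.92), Vsig10 (0.91) and Col1a1 (0.90), and for Vim Col3a1 (0.85), Col1a1 (0.85) and AI506816 (0.85). Before group means were subtracted, the r of Pdgfrb with Col1a2 was 0.87 and that of Vim with Col1a1 was 0.86. For Cygb they were Entpd2 (0.86), Ggt5 (0.86) and Blnk (0.84). For Lrat they were Hic1 (0.80), Tmem71 (0.71) and Cyp26b1 (0.70), the last a retinoic acid-degrading enzyme. For Reln they included Abcc9 (0.84) and Cpd (0.75). For the contractile genes they were Zbtb40 (0.76), Sfrp1 (0.74) and Strbp (0.73) for Acta2, and Gm3776 (0.77), Gm15832 (0.74) and Mapre3 (0.71) for Tagln. Of these, Gm3776 stood at 0.93 with Tagln before group means were subtracted, and Zbtb40 at 0.09 with Acta2. For Pdgfra (Mdm2, 0.87, Wdr7, 0.85, and Appl1, 0.84), Ecm1 (Angptl6, 0.88, Timm22, 0.88, and Eef1d, 0.87) and Des (C1qtnf5, 0.83, Prdx2, 0.83, and Rmnd1, 0.83), the members themselves varied with the length slope, as Reln did (0.57). Without the 3 libraries of steeper slope, the r with the length slope was 0.69 for Pdgfra, 0.62 for Reln, -0.44 for Ecm1 and -0.41 for Des. The r of Ecm1 with Eef1d was then 0.73, that of Des with Prdx2 0.72, that of Pdgfra with Mdm2 0.88 and that of Reln with Abcc9 0.82, and the part of the length slope in these values was not tested.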

How the data were processed

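Liver RNA-Seq counts per gene of 24 mice were used. The deposited values are counts per gene, not normalized, which the authors obtained from polyA-enriched RNA by a protocol that keeps the strand. The submitters' processing notes name cutadapt 4.8, FastQC 0.11.8, STAR 2.7.8a, RSEM 1.3.3 and GRCm38, and the methods name Ensembl 102 and the removal of genes at 0 in every sample. Whether RSEM's estimates were rounded is not given in the sources used here. All values were whole, and 0 columns of values lacked a sample.

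The test was edgeR 4.0.16 under R 4.3.3 (TMM scaling, estimateDisp, robust glmQLFit, glmQLFTest), in 1 fit of the 4 groups over all 23972 genes, with Benjamini-Hochberg adjustment. A call needed an adjusted p under 0.05 and a change over 1.5-fold, the thresholds of the study. CPM are counts scaled by the TMM library size, with a prior count of 2 on the log2 scale. The procedure was tested on simulated data with the same dispersion for every gene and no length slope or outlying library. That run does not cover these features of the real libraries. Intervals of single differences are 1.96 SE on either side. Libraries are numbered in ascending order of animal number, which pairs no samples. Pairs within groups (67) differed by a chi-square per degree of freedom of at least 14.1, so none was merged.

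All 10 members were named in every comparison, up to 4 genes per list and comparison by smallest adjusted p, and 3 genes most like each member by Pearson's r, of which 1 is not reported here. A gene named outside this rule is marked as such or is the defining marker of a cell type. The members and lists were chosen with earlier results of these data known. The length slope is a fit over well-expressed genes to the difference of a library from the median of its genotype. A length trend shared by all libraries of a genotype is thereby removed, so the slope as covariate cannot adjust the genotype comparisons for it. The alternatives tried were DESeq2 1.42.0 and its size factors, a filter on low counts, only the groups compared, the length slope or the digits of the animal number as covariate, adjusted p alone, another gene length, and leaving out libraries.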

Additional observations from a re-analysis of the deposited data

Results flagged for a closer look

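In 30 groups of a member and a set of 6 to 8 libraries, 5 held a library whose gap to its nearest neighbour was large for the range of its group by Dixon's test, which chance gives in about 1 of 20 groups. Control vehicle library 4 held 45.1 CPM of Vim against 32.3 CPM in the next library, and 17.1 CPM of Cygb against 12.3 CPM, and it was also the highest of its group for Pdgfrb and Lrat. Control vehicle library 3, one of those with a steeper length slope, held 6.91 CPM of Lrat against 11.7 CPM in the next. Control vehicle library 6 held 55.4 CPM of Reln against 45.9 CPM. Lmna ADKO FGF21 library 3 held 16.9 CPM of Pdgfrb against 10.4 CPM, and was also the highest of its group for Pdgfra and Lrat. Groups of 3 libraries were not tested. No interaction of genotype and treatment was called for a member.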

How the results depend on the processing

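Tagln, Acta2 and Lrat were called with vehicle, and Tagln with FGF21, under every alternative that was run, and by edgeR and DESeq2 alike. The log2 fold change of Tagln ran from 1.28 to 1.42 with vehicle and from 0.84 to 1.02 with FGF21 over the leave-one-out fits. By adjusted p alone, 5 members passed with vehicle. With FGF21, the number called was 3 without the libraries with adipocyte marker reads and ran from 1 to 2 when single libraries were left out, 2 without control FGF21 library 1, where Ecm1 was called too (-0.62, adjusted p = 0.037). The setting without the libraries with adipocyte marker reads, and that without the libraries with skeletal muscle reads, were added after seeing the data.

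Changes of sign were confined to differences that had not passed. For FGF21 in controls, Acta2 turned to -0.050 without the libraries with adipocyte marker reads and ran from -0.23 to 0.38 when single libraries were left out. Lrat there turned to 0.051 with the digits of the animal number as covariate and to 0.077 without the libraries with adipocyte marker reads, and ran from -0.23 to 0.079. For FGF21 in Lmna ADKO livers, Pdgfrb turned to 0.0029 without the libraries with skeletal muscle reads and ran from -0.24 to 0.023. For genotype with FGF21, Des ran from -0.29 to 0.019. Of the retinoid genes with vehicle, 3 were called by the reported test and 5 by DESeq2 on only the groups compared. The cause was not tested. The 3 FGF21-treated controls limit both comparisons that use them.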
